A study of Mus musculus with 4 samples.

Results

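A set of 9 genes that belong to other blood lineages were followed through a map of methylated DNA in CD4+ T cells. They were picked by gene label from a deposited table of 10000 captured regions under 5349 gene labels, and 20 regions carried one of the 9 labels. The B lineage genes Ebf1, Pou2af1, Blnk, Blk and Bank1 held 15 of these regions, and the myeloid genes Sfpi1, Csf3r, Flt3 and Mpo held 5. Genomic DNA came from spleen and lymph node cells of female Balb/c mice, and methylated fragments were captured with a methyl-CpG-binding protein and sequenced. The 4 populations had 1 library each. Th17 cells were CD45RB low and secreted IL-17A without interferon gamma. Treg cells were the CD4+ cells with the brightest CD25, Th1 cells were CD45RB low and secreted interferon gamma without IL-17A, and naive cells were CD45RB high. All 4 had seen 10 ng/ml PMA together with 500 ng/ml ionomycin for 3 h, Treg cells after their sort and the others before it. Neither the age of the mice nor any pooling of animals is stated in the labels.

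The 9 genes are known mainly from blood lineages other than T cells, although lymphoid progenitors and early T cells use some of them. Ebf1 and Sfpi1 encode transcription factors that direct blood progenitors towards the B and the myeloid fates, and Pou2af1 a coactivator of octamer-binding factors in B cells. Blnk, Blk and Bank1 act downstream of the B cell antigen receptor, whereas Csf3r and Flt3 are growth factor receptors of granulocytes and early progenitors, and Mpo is the peroxidase of neutrophil granules. Genes of this kind are mostly silent in mature CD4+ T cells. DNA methylation at promoters and enhancers goes with silence, while the bodies of most mouse genes are methylated whether or not they are transcribed, so a methylated intron says little by itself about expression.

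Every one of the 10000 regions, the 20 described here included, was listed at 0 in the Th17 library, so no fold against Th17 cells is given and the results concern Treg, Th1 and naive cells. Reads over the table numbered 74571 in Treg cells, 19548 in Th1 cells and 34277 in naive cells, which are not the depths of the whole libraries. The deposited value is a scaled read number, in which 1 read was worth 0.352 in Treg, 1.68 in Th1 and 0.996 in naive cells. Th1 values are therefore the coarsest. Each value is given with the 95% exact Poisson interval of its reads, which covers counting error only. With 1 library per population nothing measures the spread between animals or sorts. In bulk DNA, a difference in methylation per cell and a difference in the share of cells of another type cannot be told apart. Capture does not measure expression, so the sorted cell types could not be checked by their markers.

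As a group the 20 regions held 150 Treg, 42 Th1 and 64 naive reads. Per region this came to a mean value of 2.64 for Treg (interval 2.24 to 3.10), 3.53 for Th1 (2.54 to 4.77) and 3.19 for naive cells (2.45 to 4.07). All 10000 regions averaged 2.63 for Treg, 3.29 for Th1 and 3.41 for naive cells, each inside the interval of the lineage genes. The median over regions of the mean value of the 3 libraries was 3.07 for the lineage genes and 3.06 for all regions. Treg reads were present in all 20 regions, naive reads in all 20, and Th1 reads in all but 3, so 17 regions (85.0%) were read in each of the 3 libraries, against 85.9% of the table. How regions entered the table is not stated, and all 10000 are at 0 in Th17. The presence and level of reads in these 3 libraries may therefore be set partly by that listing, which was not tested.

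**Figure D1:**
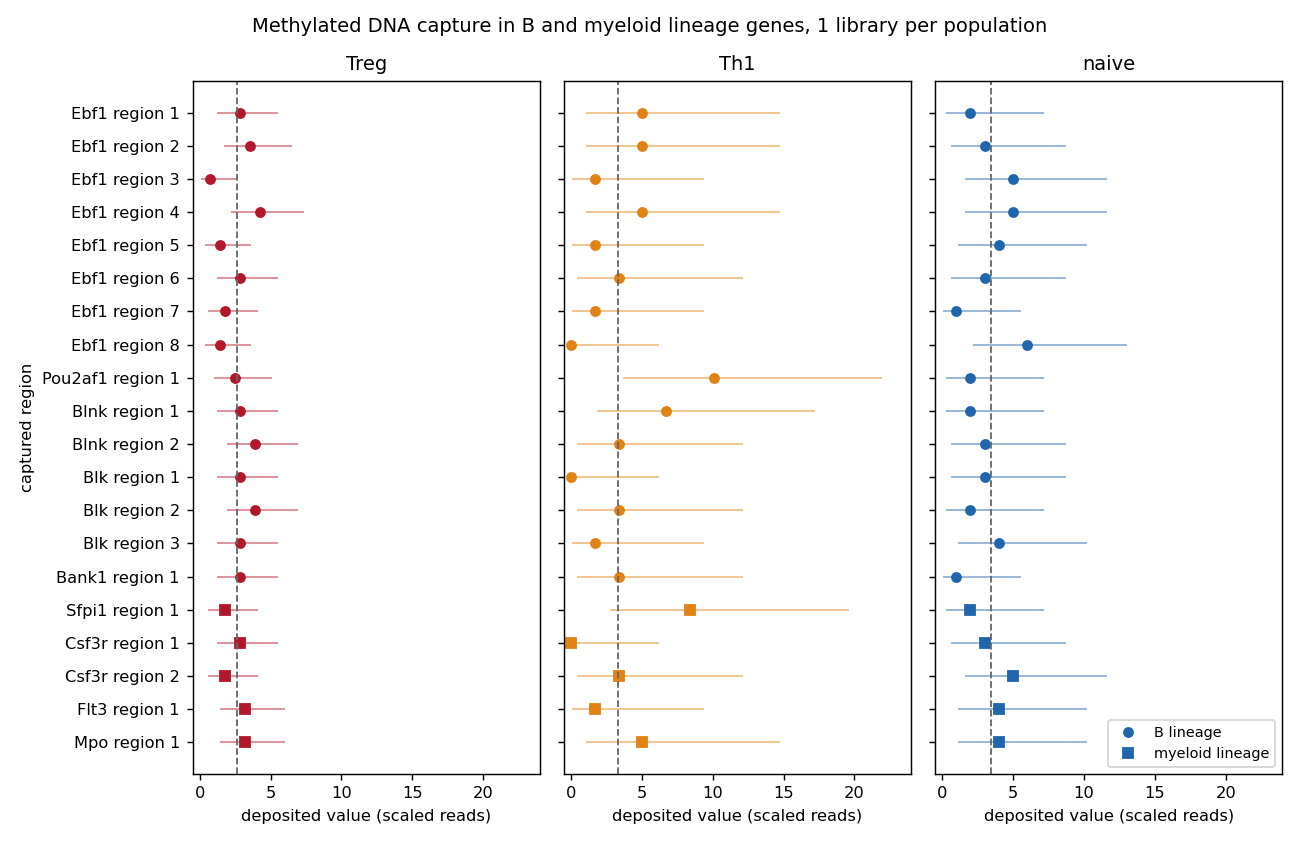
Deposited value of each of the 20 captured regions (x axis, scaled reads) in Treg, Th1 and naive cells, with exact Poisson intervals at 95% as bars, circles for B lineage and squares for myeloid genes, and the mean over all 10000 regions as a dashed line. Th1 points spread from 0 to the 10.1 of Pou2af1, and Treg points stay between 0.705 and 4.23.

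Ebf1, the factor that opens the B cell programme in progenitors, had 8 of the 20 regions. All 8 were intronic and lay over 365 kb of chromosome 11. They made up 2.35% of the 340 region numbers between the first and the last of them, beside a median of 2.74% over the 338 genes with at least 5 regions. Counting along the coordinates, which is the direction of transcription in RefSeq, Treg reads were 8, 10, 2, 12, 4, 8, 5 and 4. Th1 reads were 3, 3, 1, 3, 1, 2, 1 and 0, and naive reads were 2, 3, 5, 5, 4, 3, 1 and 6. The naive library was thus highest in the last region, where the Th1 library had no read. Summed over Ebf1 the mean value per region was 2.34 for Treg (1.75 to 3.05), 2.94 for Th1 (1.61 to 4.94) and 3.61 for naive cells (2.42 to 5.19), and all 3 intervals overlapped.

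Within Ebf1 the regions did not share one order of the libraries. Region 4, counted the same way (chromosome 11, 44678428 to 44678819) held the most reads of any of the 20, with values of 4.23 in Treg, 5.04 in Th1 and 4.98 in naive cells. There the 3 populations were close to level. The third region (44657199 to 44657433), the one before it, had a value of 0.705 for Treg (0.0854 to 2.55), 1.68 for Th1 (0.0426 to 9.37) and 4.98 for naive cells (1.62 to 11.6). Its Treg to naive ratio was 0.142 (exact binomial interval 0.0135 to 0.864). The eighth region (44810770 to 44810984) had 1.41 in Treg, 0 in Th1 and 5.98 in naive cells, a Treg to naive ratio of 0.236 (0.0490 to 0.995). With library totals over the table made equal, this ratio interval and that of the third region both include 1. The interval of that Th1 count of 0 reaches a value of 6.20, above the naive one, so no Th1 fold is given. The first region (44445554 to 44445908), nearest the start of the gene, ran the other way, with 2.82 in Treg, 5.04 in Th1 and 1.99 in naive cells. The seventh (44796587 to 44796882) was among the faintest regions of the whole table, at rank 9871 of 10000 by mean value, with 5 Treg, 1 Th1 and 1 naive read.

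**Figure D2:**
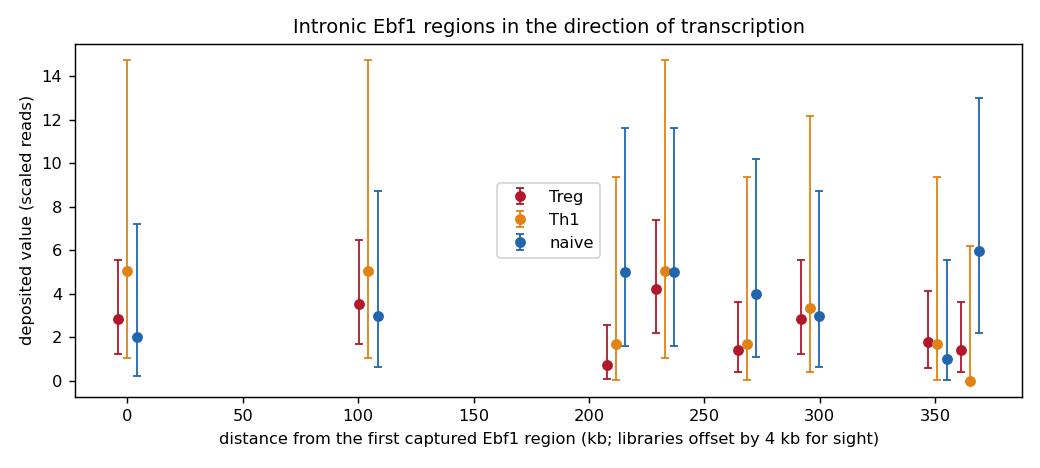
The 8 intronic Ebf1 regions by distance from the first (x axis, kb) and deposited value (y axis, scaled reads) in Treg, Th1 and naive cells, with exact Poisson intervals at 95%. Naive points stand above Treg points at regions 3, 4, 5, 6 and 8 and below them at regions 1, 2 and 7, and at each region all 3 intervals overlap.

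Pou2af1, which encodes the B cell coactivator needed for germinal centres, had 1 region, and it was the single promoter region among the 20 (chromosome 9, 51019757 to 51019994). It carried 7 reads in Treg cells, 6 in Th1 cells and 2 in naive cells, with values of 2.47 (0.992 to 5.08), 10.1 (3.70 to 22.0) and 1.99 (0.241 to 7.20) for Treg, Th1 and naive. The Th1 value was the highest of the 3, and its interval overlapped both of the others. The Treg to Th1 ratio was 0.245 (0.0704 to 0.881), and the Th1 to naive ratio was 5.06 (0.905 to 51.3), an interval that includes 1. With library totals over the table made equal, the Treg to Th1 interval includes 1 as well. By mean value this region ranked 313 of 10000, the highest of the 20. That mean leans on the Th1 value, since 1 read was worth 1.68 in Th1 and 0.352 in Treg. By reads it held 15 over the 3 libraries, where region 4 of Ebf1 held 20. Of all regions in the table, 98 (0.980%) held 6 or more Th1 reads, and of the 477 promoter regions 2 held more than 6. This region had the most Th1 reads of the 20 and its own count set that cut, so the share is not a test. The table places the region with a middle difference of -1920. Promoter regions run from -2228 to 644 in that column and other regions are at 0, but its zero point is not stated.

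Because capture depends on methylated CpG, the RefSeq window around the Pou2af1 start, 250 bases before to 50 after it, is shown with each CpG in capitals (GRCm38.p6, chr9:51213440-51213739, plus strand). The captured region is given in another build, mm9, and whether the window overlaps it was not tested. If the middle difference of -1920 counts from the gene start, the region lies outside this window.
Pou2af1: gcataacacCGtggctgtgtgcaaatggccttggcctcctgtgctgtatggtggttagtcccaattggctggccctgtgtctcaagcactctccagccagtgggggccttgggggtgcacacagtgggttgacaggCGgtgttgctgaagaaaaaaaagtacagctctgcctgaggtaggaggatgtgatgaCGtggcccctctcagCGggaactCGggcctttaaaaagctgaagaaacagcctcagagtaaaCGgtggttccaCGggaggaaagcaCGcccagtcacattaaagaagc
This window holds 8 CpG. Over all 32851 RefSeq windows of this length, 94.6% hold at least 1 CG and the median is 7. Windows were found for 7 of the 9 genes. They hold 7 CpG for Blnk, 3 for Bank1, 9 for Csf3r, 18 for Flt3 and 2 for Mpo, and 9 and 17 for the pair of Ebf1 starts. A window for Blk or Sfpi1 is not shown.

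The 3 signalling genes of the B cell receptor held between 0 and 4 Th1 reads per region. Blnk, the adaptor that ties the kinase Syk to phospholipase C, had 2 intronic regions on chromosome 19. The first (41026453 to 41026761) had values of 2.82 in Treg, 6.72 in Th1 and 1.99 in naive cells, and the second (41029692 to 41030173), nearer the start of this minus-strand gene, 3.88, 3.36 and 2.99 for Treg, Th1 and naive. Th1 led in the first of them alone. Over both regions the Th1 to naive ratio was 2.02 (0.515 to 8.39).

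Blk, a Src family kinase of B cells that gamma-delta T cells also use, had 3 regions on chromosome 14. In the first, an intron (63997802 to 63998014), Treg cells had 8 reads, Th1 cells 0 and naive cells 3. In exon 2 (64006401 to 64006655) the reads were 11 Treg, 2 Th1 and 2 naive, and in the other intron (64030904 to 64031185) 8 Treg, 1 Th1 and 4 naive. The exon 2 region was the single exonic one of the 20, and its reads were near the medians of the 222 exon 2 regions in the table, which were 8 Treg, 2 Th1 and 3 naive. Summed over Blk, the mean value was 3.17 for Treg (2.09 to 4.62), 1.68 for Th1 (0.347 to 4.91) and 2.99 for naive cells (1.37 to 5.67). Th1 was the lowest here and the highest in Blnk, where its mean was 5.04 (1.85 to 11.0), and these Th1 intervals overlap.

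Bank1, a scaffold that joins the kinase Lyn to calcium release, had 1 intronic region (chromosome 3, 135858044 to 135858387). It held 8 reads in Treg cells, 2 in Th1 cells and 1 in naive cells, with values of 2.82, 3.36 and 0.996 for Treg, Th1 and naive. With 1 naive read, the Treg to naive ratio of 2.83 has an interval of 0.379 to 126.

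Among the myeloid genes, Sfpi1, now called Spi1, encodes the ETS factor that early T cells switch off on commitment. Its intronic region (chromosome 2, 90937808 to 90938300), at 493 bp the longest of the 20, held 5 Treg, 5 Th1 and 2 naive reads. The values were 1.76 for Treg (0.572 to 4.11), 8.40 for Th1 (2.73 to 19.6) and 1.99 for naive cells (0.241 to 7.20). As at Pou2af1, Th1 stood highest. It did so too at Bank1, Mpo, the first Blnk region and regions 1, 2, 4 and 6 of Ebf1, so this order was common among the lineage regions. The Treg to Th1 ratio was 0.210 (0.0483 to 0.911), and the Th1 to naive ratio was 4.22 (0.691 to 44.3). The first of these intervals also includes 1 once library totals over the table are made equal. Of all regions, 378 (3.78%) held 5 or more Th1 reads, a cut set by this region's own count and not a test.

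Csf3r, the receptor of granulocyte colony-stimulating factor, had 2 intronic regions on chromosome 4. The first (125702893 to 125703150) had values of 2.82 in Treg, 0 in Th1 and 2.99 in naive cells. The second (125710784 to 125711010) had 1.76 in Treg, 3.36 in Th1 and 4.98 in naive cells. The naive value was the highest of the 3 in both. The Treg to naive ratio was 0.944 (0.226 to 5.52) in the first region and 0.354 (0.0814 to 1.54) in the second, and both intervals include 1. At the first region the Treg and the naive values lie below 6.20, where the interval of a Th1 count of 0 ends, so no Th1 fold is given there.

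Flt3, the receptor kinase of lymphoid and dendritic progenitors, had 1 intronic region (chromosome 5, 148183148 to 148183428) with 3.17 in Treg, 1.68 in Th1 and 3.98 in naive cells. The intron region of Mpo (chromosome 11, 87615458 to 87615627), at 170 bp the shortest of the 20, had 3.17 in Treg, 5.04 in Th1 and 3.98 in naive cells. In both genes all intervals overlapped. Over the 5 myeloid regions the mean value was 2.54 for Treg (1.78 to 3.51), 3.70 for Th1 (1.85 to 6.62) and 3.59 for naive cells (2.13 to 5.67). For the 15 B lineage regions it was 2.68 for Treg (2.21 to 3.22), 3.47 for Th1 (2.36 to 4.93) and 3.05 for naive cells (2.24 to 4.07). B lineage and myeloid genes therefore overlapped in each library.

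The populations were then set against each other region by region. A region was counted as higher or lower when its values, after 0.5 was added to each, differed by a log2 ratio of 1 or more. This rule is a size and not a test. In Treg against naive cells, 1 lineage region was higher (5%, with 8.33% of the table), in Bank1, and 4 were lower (20.0%, with 22.2% of the table), 3 of them in Ebf1 and 1 in Csf3r. In Th1 against naive cells, 5 were higher (25.0%, with 19.4% of the table) and 7 were lower (35.0%, with 29% of the table). The 5 were in Ebf1, Pou2af1, Blnk, Bank1 and Sfpi1, and the 7 were 3 of Ebf1, 2 of Blk and 1 each of Csf3r and Flt3. In Treg against Th1 cells, 3 were higher (15.0%, with 17% of the table), in Ebf1, Blk and Csf3r, and 3 were lower (15.0%, with 21% of the table), in Pou2af1, Blnk and Sfpi1. The 3 that were higher in Treg are the 3 regions with no Th1 read, and their Treg values lie below the 6.20 at which the interval of a Th1 count of 0 ends. The same 3 are among the 7 that were lower in Th1 than in naive cells, and the rest of the 7 held 1 Th1 read each. At each of the 5 and the 7, the interval of the Th1 to naive ratio includes 1. With library totals over the table made equal, Treg against naive gave 2 higher and 3 lower, with 15.6% and 15.4% of the table, and Treg against Th1 gave 4 higher and 2 lower, with 22.8% and 15.5% of the table. The 3 comparisons share libraries. With 20 regions, 1 region is 5% of them, and nothing in these counts sets the lineage genes apart.

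**Figure D3:**
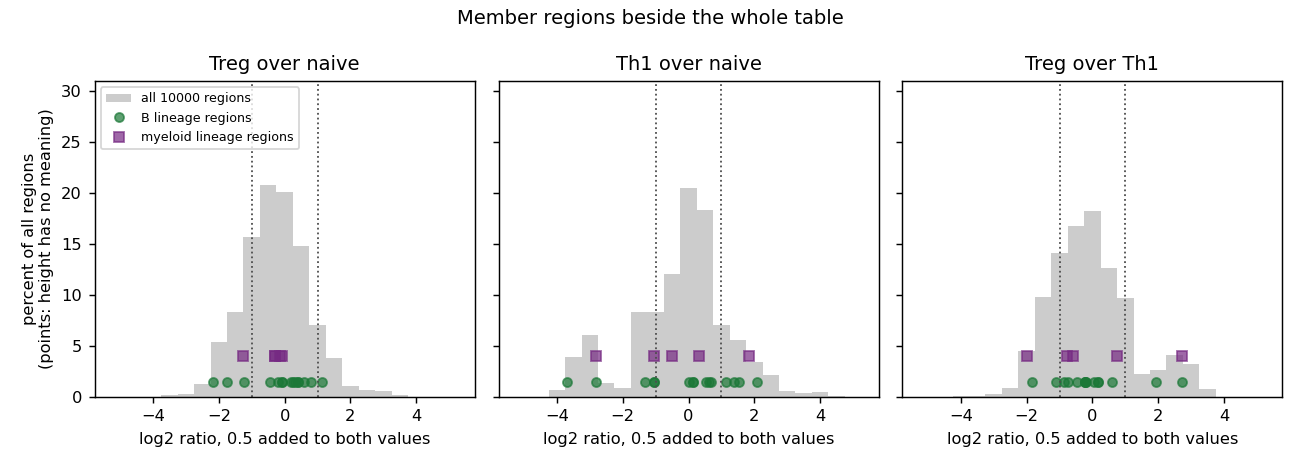
Log2 ratios with 0.5 added to both values (x axis) for all 10000 regions (grey bars, percent of regions) and for B lineage (circles) and myeloid regions (squares), whose height has no meaning. Dotted lines mark ratios of 1 in size, and most points fall between them in the Treg to naive and Treg to Th1 panels and 8 of 20 do in the Th1 to naive panel.

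The exact binomial test of the reads, 2-sided with Benjamini-Hochberg adjustment over the table, speaks of these libraries, not of cell types. It called 0 of the 20 regions in each of the 3 comparisons, where it called 1 region of the table (0.01%) in Treg against naive and 0 (0%) in the other comparisons. Without adjustment, 2 lineage regions fell under 0.05 in Treg against naive (both in Ebf1), 0 in Th1 against naive, and 2 in Treg against Th1 (Pou2af1 and Sfpi1). Of the table, 8.40%, 1.53% and 5.01% did so in the same comparisons. All of these p-values rest on the deposited scaling. The smallest exact p among the lineage regions was 0.0153, for Treg against Th1 at Pou2af1, with an adjusted p of 0.739. After adjustment, no difference was detectable at any of the 20 regions at this depth.

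The summed values gave a log2 ratio of -0.27 for Treg over naive (-0.70 to 0.18), where the table gave -0.38. With library totals over the table made equal, the lineage ratio turned to 0.11. For Th1 over naive it was 0.15 (-0.45 to 0.73), against -0.06 for the table. Leaving out 1 gene moved it both ways, to -0.03 without Pou2af1 and to 0.43 without Ebf1. For Treg over Th1 it was -0.42 (-0.92 to 0.11), against -0.32 for the table. Each interval includes 0 and the ratio of the table.

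Introns held 18 of the 20 lineage regions (90.0%), against 78.7% of the table. Exons held 1 (5%), against 16.6%, and promoters 1 (5%), against 4.77%, and these shares were not tested against each other. Their median length was 269.5 bp, against 249 bp. Per 100 bp of region they held 2.62 Treg, 0.733 Th1 and 1.12 naive reads, where the table held 2.85, 0.747 and 1.31. None of them overlapped a region listed under another gene (0 of 20). Ebf1 was among the genes with many regions: 80 labels had more than its 8, the median label had 1, and 63.6% of labels had 1 alone.

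Wider lists of lineage genes were looked up in the table through RefSeq symbols and synonyms. Of 40 B lineage genes, 12 (30.0%) had at least 1 region, and of 45 myeloid genes 10 (22.2%) did, beside 22.1% of 21900 protein-coding genes. Of 30 T lineage genes, 3 (10.0%) had a region: Cd28, Cd5 and Txk. The share was 65.6% (21 of 32) for B cell receptor signalling genes and 25.0% (6 of 24) for haematopoietic cytokine receptors and their ligands and signalling proteins. These last lists are drawn by pathway and not by lineage. Their shares therefore do not set B lineage against T lineage genes. Longer genes have more room for regions, and these shares were not adjusted for length. The table holds 10000 regions, all at 0 in Th17, while their region numbers span 1.48e+06. A gene with no region here may still have captured regions outside the table.

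**Figure D4:**
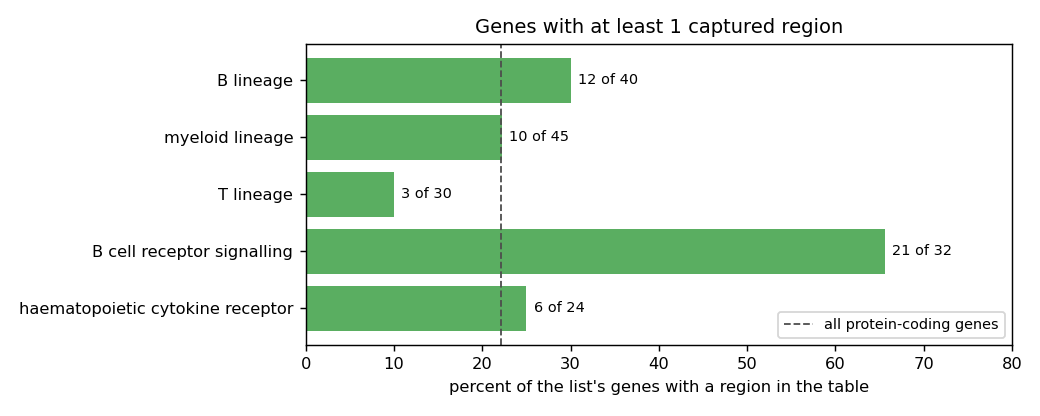
Percent of each list's genes that have at least 1 region in the table of 10000 (x axis, bars, with counts), beside all protein-coding genes (dashed line at 22.1%). B cell receptor signalling genes reach 65.6% and T lineage genes 10.0%, with no adjustment for gene length.

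Other B lineage genes had regions too. Pax5, which with Ebf1 fixes the B cell fate, had an intronic and an exon 2 region that together held 18 Treg, 4 Th1 and 2 naive reads. Tcf3, whose E proteins act before Ebf1, had an intron with 19 Treg, 3 Th1 and 1 naive read, a Treg to naive ratio of 6.72 (1.07 to 279). In these 2 factor genes the naive library was the lowest. Cd22, an inhibitory receptor, had an intron with 12 Treg, 0 Th1 and 5 naive reads, and Bach2, a repressor of plasma cell fate, one with 8 Treg, 1 Th1 and 1 naive read. Lyn, the kinase that Bank1 binds, and the receptor gene Tnfrsf13b leaned to naive cells. The 2 Lyn introns held 11 Treg, 3 Th1 and 11 naive reads, a Treg to naive ratio of 0.354 (0.139 to 0.900), and the Tnfrsf13b intron 4 Treg, 2 Th1 and 7 naive reads. Over the 24 regions of the B lineage list, which include the lineage genes above, 5 were higher (20.8%, with 8.33% of the table) and 5 lower (20.8%, with 22.2%) in Treg than in naive cells. In Th1 against naive, 8 were higher (33.3%, with 19.4%) and 7 lower (29.2%, with 29%), and in Treg against Th1 3 were higher (12.5%, with 17%) and 4 lower (16.7%, with 21%).

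A further 6 myeloid genes had regions. Tcf4, a factor of plasmacytoid dendritic cells, had 7 introns with 61 Treg, 15 Th1 and 17 naive reads. Mrc1, the mannose receptor of macrophages, had 3 regions with 29 Treg, 1 Th1 and 12 naive reads, a Th1 to naive ratio of 0.141 (0.00329 to 0.95). The scavenger receptor gene Marco had 13 Treg, 1 Th1 and 3 naive reads, and exon 7 of Kit, the stem cell factor receptor gene, 10 Treg, 1 Th1 and 4 naive. Their Th1 to naive ratios were 0.562 (0.0107 to 7.01) for Marco and 0.422 (0.00857 to 4.26) for Kit, and both intervals include 1. The 2 exon regions of Csf2rb, the shared beta chain of several cytokine receptors, held 23 Treg, 2 Th1 and 6 naive reads, and exon 8 of the Fc receptor gene Fcgr1 11 Treg, 3 Th1 and 2 naive. The myeloid list also includes Sfpi1, Csf3r, Flt3 and Mpo. Over the 20 regions of the myeloid list, 3 were higher (15.0%, with 8.33% of the table) and 4 lower (20.0%, with 22.2%) in Treg than in naive cells. In Th1 against naive, 4 were higher (20.0%, with 19.4%) and 7 lower (35.0%, with 29%), and in Treg against Th1 7 were higher (35.0%, with 17%) and 3 lower (15.0%, with 21%). The summed values gave a log2 ratio of Th1 over naive of -0.11 (-0.76 to 0.51) for this list and 0.08 (-0.48 to 0.63) for the B lineage list, and these intervals overlap.

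Signalling partners of Blnk, Blk and Bank1 had regions too. Plcg2, the phospholipase that Blnk recruits, had 3 introns with 35 Treg, 6 Th1 and 13 naive reads, and Itpr2, the calcium channel that opens after it, had 7 with 63, 12 and 21 for Treg, Th1 and naive. Itpr1 held 25 Treg, 7 Th1 and 17 naive reads. The Treg to naive intervals of Plcg2, Itpr2 and Itpr1 all include 1. Prkcb, the protein kinase C of this pathway, had 3 introns with 22 Treg, 4 Th1 and 16 naive reads and a Treg to naive ratio of 0.487 (0.244 to 0.991). Nfkb1, a transcription factor subunit at the end of the pathway, had 28 Treg, 4 Th1 and 3 naive reads and a ratio of 3.30 (1.02 to 17.0). Those ratios stand on opposite sides of 1. The others with regions were Dapp1, Fyn, Grb2, Inpp5d, Nfatc1, Pik3cd, Rasgrp3, Sos1, Tec and Vav2, and of the cytokine receptor list Cbl and Il3ra. The signalling list includes Blnk, Blk and Bank1 themselves, and the cytokine receptor list includes Csf3r and Flt3. Over the 43 regions of the signalling list, 7 were higher (16.3%, with 8.33% of the table) and 5 lower (11.6%, with 22.2%) in Treg than in naive cells. In Th1 against naive, 10 were higher (23.3%, with 19.4%) and 13 lower (30.2%, with 29%), and in Treg against Th1 10 were higher (23.3%, with 17%) and 6 lower (14.0%, with 21%). Of the 9 regions of the cytokine receptor list, 0 were higher and 2 lower (22.2%) in Treg than in naive cells. In Th1 against naive 0 were higher and 3 lower (33.3%), and in Treg against Th1 2 were higher (22.2%) and 3 lower (33.3%), with the same table shares. None of these list shares was tested against the table. The intervals of single list genes are not adjusted for the number of genes and comparisons, so some can miss 1 by counting error alone.

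The pattern of reads was shared with many regions elsewhere. For region 4 of Ebf1, with 12 Treg, 3 Th1 and 5 naive reads, 2 regions of other genes had the same reads in all 3 libraries, an intron of Ces1d on chromosome 8 and an intron of Sap130 on chromosome 18. The third nearest, an intron of Rab30 on chromosome 7, differed by 1 read. Pou2af1 had 4 such twins and Sfpi1 7, while the second intronic Blk region had 131. The likeness is a sum of read differences over 3 libraries, and with so few reads it says little.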

How the data were processed

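Per the labels' protocols, DNA of sorted cells was captured with a MethylCap kit and made into libraries from 250 ng, with fragments of 250 to 350 bp kept. Bowtie 0.12.7, FastQC and mm9 appear in the submitters' processing notes. For mapping settings, region calling and scaling, details were not given in the sources used here. Per region, the deposited values are a signal, a scaled number of reads. Of the Treg, Th1 and naive signals, 100% were whole multiples of the library's smallest positive value (relative tolerance 1e-06), and division gave the reads. The Th17 signal is 0 throughout.

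Columns were matched to samples by name. Having 1 library each, populations were compared by size and not by a test, and the exact binomial test of reads, with Benjamini-Hochberg adjustment, compares these libraries alone. Ratios have exact binomial (Clopper-Pearson) intervals at 95% and values exact Poisson ones. Positions are in mm9 as deposited. Gene names were joined through GRCm38.p6 RefSeq tables, in which 5162 of 5349 labels matched.

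The members and gene lists were chosen with earlier results of these data known. All 9 genes, all list genes with a region and the 3 regions most alike to the one with the most reads are named, except 1 item that is not reported here. Alternatives were other fold sizes, a pseudocount of 5, equal table totals, median-of-ratios scaling, at least 10 reads, merging within 500 bp, the exact test, and leaving out each gene. Python 3.11.15, scipy 1.17.1 and pandas 2.3.3 were used.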

Additional observations from a re-analysis of the deposited data

How the results depend on the processing

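No paired analysis was possible because each population has 1 library. The counts depend on the size that is asked for, since most regions hold few reads. With a pseudocount of 5 in place of 0.5, lineage regions past the rule numbered 0 of 20 in Treg against naive, 2 in Th1 against naive and 1 in Treg against Th1, and table regions 79, 412 and 189. At a log2 ratio of 1.5 the lineage counts were 2, 6 and 5 and the table counts 1616, 2497 and 2095; at 1.5-fold the table counts were 5525 in Treg against naive and 6144 in Treg against Th1, and 12 lineage regions passed in Treg against Th1. With at least 10 reads over the 3 libraries, 3 of 17 lineage regions passed in Treg against naive, beside 2161 of 8406 table regions. The exact binomial test called 0, 0 and 0 lineage regions, and 1, 0 and 0 of the table. Under the other settings, totals of higher and lower regions together stayed within 1.5 times the main ones, and every ratio of sums stayed inside its main interval. Scaling turned directions: equal table totals moved Treg over naive up by 0.38 and Treg over Th1 by 0.32 on the log2 scale. At equal totals the Treg to naive intervals of Ebf1 regions 3 and 8, Lyn and Prkcb include 1, and those of Tcf3 and Nfkb1 move further from 1. The Treg to Th1 intervals of Pou2af1 and Sfpi1 include 1 there too. The ratios at these Ebf1, Pou2af1 and Sfpi1 regions stayed past the 2-fold rule. In Treg against naive, 1557 table regions were higher and 1541 lower at equal totals, against 833 and 2217 as deposited; in Treg against Th1, 2274 were higher and 1222 lower with median-of-ratios scaling, against 1701 and 2096. Lineage regions split into 2 higher and 3 lower and into 4 higher and 2 lower under both scalings, against 1 and 4 and 3 and 3 as deposited. In Treg against naive, higher regions were 27.3% of those past the rule at the deposited scaling and 50.3% at equal totals, and in Treg against Th1 44.8% and 59.4%, or 65.0% with median-of-ratios scaling. Median-of-ratios scaling moved the lineage log2 ratio of Treg over naive to 0.09. Leaving out single genes moved the ratios both ways. The Treg over naive ratio was -0.03 without Ebf1 and -0.35 without Blnk, and the Th1 over naive ratio was 0.01 without Sfpi1 and 0.43 without Ebf1. Median reads per region were 7 in Treg, 2 in Th1 and 3 in naive cells, and these low counts limit each comparison.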
